A study of Mus musculus with 17 samples.

Results

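The 9 genes examined encode the enzymes that methylate lysine 9 of histone H3 (H3K9) and the proteins that bind this mark or recruit its writers. They were chosen by name and were *Suv39h1*, *Suv39h2*, *Ehmt1*, *Ehmt2*, *Setdb1*, *Trim28*, *Cbx1*, *Cbx3* and *Cbx5*. All 9 were found among the 23282 genes of the deposited table, and all 9 passed the filter of a mean of at least 10 reads. Their RNA was measured in 3 stages of male germ cells, which were spermatogonia (SPG), cells at pre-leptotene (PreL) and cells at leptotene or zygotene (LZ), all sorted by FACS after Hoechst and propidium iodide staining. Libraries were made with Smart-seq2, an oligo(dT)-primed method that amplifies the cDNA of polyadenylated RNA. Each genotype had 3 libraries per stage, except WT LZ with 2, which gave 17 in all. SKO denotes *Nat10* fl/–;Stra8-Cre mice, labelled Stra8-cre_Nat10_KO, in which a Stra8-GFPCre knock-in removes exons 4 and 5 of *Nat10* in germ cells from the onset of Stra8 expression, and WT denotes mice labelled wildtype without further detail. Both genotypes were on the C57BL/6J background, and the age of the sorted mice was not given in the sources used here. Somatic cells of the SKO testis keep the floxed *Nat10* allele, but by this genotype carry it over a – allele, so they may differ from WT cells too. The paper calls the RNA-seq replicates biological, but neither it nor the labels say that they were separate animals. The p-values thus measure only the spread between these samples, which may be technical.

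Methylation of H3K9 marks silent chromatin. SUV39H1 and SUV39H2 write the trimethyl mark at pericentromeric repeats, and their combined loss in mice disturbs chromosome pairing in male meiosis. EHMT2 (G9a) and EHMT1 (GLP) act as a heterodimer that writes mono- and dimethyl marks on euchromatic genes, and G9a is needed for progression through early meiotic prophase. TRIM28 (KAP1) is brought to DNA by KRAB zinc-finger proteins and recruits SETDB1, which trimethylates H3K9 at retrotransposons and other silenced sequences. CBX1, CBX3 and CBX5 are the HP1 proteins (HP1β, HP1γ and HP1α), whose chromodomains bind methylated H3K9. Pericentromeric heterochromatin and the XY body of spermatocytes are rich in such proteins.

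In the GENCODE annotation of GRCm38 (mm10), *Suv39h1* lies on chromosome X from 8061171 to 8074760, *Suv39h2* on chromosome 2 from 3455815 to 3475031 and *Ehmt1* on chromosome 2 from 24789928 to 24919614, all on the minus strand. *Ehmt2* lies on chromosome 17 from 34898469 to 34914052 and *Trim28* on chromosome 7 from 12999114 to 13031035, both on the plus strand, and *Setdb1* on chromosome 3 from 95323525 to 95357202 on the minus strand. *Cbx1* lies on chromosome 11 from 96789127 to 96808640 and *Cbx3* on chromosome 6 from 51470360 to 51483704, both on the plus strand, and *Cbx5* on chromosome 15 from 103191544 to 103239816 on the minus strand. The library kit does not mark strand, so reads of overlapping exons cannot be assigned. *Suv39h1* shares 767 bp of exon with the antisense gene Gm14820, *Suv39h2* shares 357 bp with *Dclre1c*, and *Setdb1* shares 249 bp with Gm37500 and 75 bp with *Cers2*. *Cbx3* has 8 annotated pseudogenes that carry its name, so its count from uniquely mapped reads is uncertain.

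Promoter stretches are shown for the 4 genes whose level differed between the genotypes in LZ. They were taken from RefSeq on GRCm38.p6, from up to 250 bases before the start of the gene, leaving out bases annotated as exon, and are written 5′ to 3′ on the strand of the gene. *Suv39h2* is chr2:3475032-3475236 on the minus strand, *Ehmt1* is chr2:24919615-24919859 on the minus strand, *Ehmt2* is chr17:34898266-34898468 on the plus strand and *Trim28* is chr7:13023902-13024151 on the plus strand. The RefSeq start of *Trim28* lies within the span that GENCODE gives this gene, whose start differs. Capitals mark matches to 4 motifs searched on both strands, which were the NRF1 motif (GCGCA, any base, then GCGC), the E-box CACGTG, the cAMP response element TGACGTCA and the E2F motif GCGGGAAA, and none of the matches overlapped another.
Suv39h2: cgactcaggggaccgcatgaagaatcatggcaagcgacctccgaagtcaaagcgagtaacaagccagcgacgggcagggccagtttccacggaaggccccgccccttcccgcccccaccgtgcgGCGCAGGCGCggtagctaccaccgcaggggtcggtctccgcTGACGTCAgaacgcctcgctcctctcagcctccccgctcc
Ehmt1: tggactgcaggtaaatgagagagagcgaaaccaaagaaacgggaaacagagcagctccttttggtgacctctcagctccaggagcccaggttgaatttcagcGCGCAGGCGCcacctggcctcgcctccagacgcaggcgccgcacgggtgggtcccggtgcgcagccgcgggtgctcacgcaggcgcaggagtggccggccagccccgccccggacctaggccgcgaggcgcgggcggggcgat
Ehmt2: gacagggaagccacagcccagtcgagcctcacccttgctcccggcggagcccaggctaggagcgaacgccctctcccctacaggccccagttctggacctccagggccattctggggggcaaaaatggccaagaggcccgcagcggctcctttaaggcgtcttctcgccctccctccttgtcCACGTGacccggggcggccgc
Trim28: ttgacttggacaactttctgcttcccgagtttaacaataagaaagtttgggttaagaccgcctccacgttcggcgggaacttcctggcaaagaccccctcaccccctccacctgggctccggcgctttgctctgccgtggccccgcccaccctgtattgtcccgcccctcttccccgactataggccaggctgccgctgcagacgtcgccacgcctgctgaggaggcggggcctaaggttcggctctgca
Both genes that were higher in SKO LZ held the NRF1 motif in this window, 126 to 117 bases before the start in *Suv39h2* and 148 to 139 bases before it in *Ehmt1*. The cAMP response element of *Suv39h2* lay 85 to 78 bases before the start. *Ehmt2* held the E-box 26 to 21 bases before the start and again 232 to 227 bases before it, outside the stretch shown, and *Trim28* held none of the 4 motifs. Over the 250 bases, the NRF1 motif was found in 4 of the 9 genes (also *Suv39h1* and *Cbx5*) and in 3.86% of 27025 mouse promoters, the E-box in 2 of 9 (*Ehmt2* and *Cbx5*) and in 6.05%, the cAMP response element in 1 of 9 and in 1.62%, and the E2F motif in 0 of 9 and in 0.929%. These matches describe the letters only.

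The deposited values are counts of uniquely mapped reads multiplied by 1 factor per library set from the ERCC spike-in, external RNA added to each lysate. Below, a rescaled value is this ERCC-calibrated count after division by the size factor of its library, the median of ratios computed over the 17 libraries. Because the size factors were computed on the calibrated counts, the division cancels the ERCC factor of each library. Rescaled values therefore compare libraries relative to the typical gene and hold no spike-in information. Each SKO LZ library held 5812380 to 7609420 recovered reads, and each of the other 14 held 9885136 to 13820953. The members held between 213 and 44130 reads each per library. *Nat10* was lower in SKO in every stage, with log2 fold changes of -0.87 in SPG (SE 0.24, limma adjusted p = 0.0177), -1.30 in PreL (SE 0.24, adjusted p = 0.000752) and -1.44 in LZ (SE 0.26, adjusted p = 0.00014). On the ERCC-calibrated values without rescaling, its difference in PreL was -0.59 (adjusted p = 0.0789).

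The sorted populations differed in markers of other testicular cells, which were summed as rescaled values over fixed lists. All 5 late spermatocyte markers (*Piwil1*, *Ccna1*, *Pgk2*, *Ldhc* and *Adam3*) were detected in both genotypes of LZ, and their sum was 51871 and 122525 in the WT LZ libraries and 347 to 387 in the SKO LZ libraries. The sum of 5 spermatid markers (*Prm1*, *Prm2*, *Tnp1*, *Tnp2* and *Acrv1*) was 17814 and 13405 in WT LZ and 81.7 to 87.8 in SKO LZ, where *Acrv1* was at 0. Marker RNA of later cells was thus far lower in SKO LZ than in WT LZ, and the same held in PreL, where the late spermatocyte sum was 5370 to 19784 in WT and 92.3 to 187 in SKO. In SPG the late spermatocyte sum overlapped, at 1807 to 3288 in WT and 28.9 to 2097 in SKO. The spermatid sum of SPG was 2020 to 5597 in WT and 2.22 to 21.0 in SKO, and the Leydig cell sum was 126 to 335 in WT and 1299 to 4864 in SKO. The sum of 7 Leydig cell markers was 924 to 9194 in SKO PreL against 133 to 400 in WT PreL, and 2505 to 6649 in SKO LZ against 527 to 1114 in WT LZ. The sum of 7 Sertoli cell markers was 14434 and 17764 in SKO PreL replicates 1 and 2, 1353 in replicate 3, 24429 and 6420 in WT LZ replicates 2 and 3, and 11773 to 15280 in SKO LZ. The macrophage sum was 89.4 to 294 in WT SPG and 1096 to 2407 in SKO SPG, and the peritubular myoid sum was 17.5 to 94.9 and 732 to 1421. In PreL and LZ these sums were at most 1121 and 436, and the endothelial sum was at most 150.3 in any library. The macrophage sum was 191 to 351 in WT PreL and 364 to 1121 in SKO PreL. In LZ it was 39.4 to 99.9 in WT and 142 to 664 in SKO. The peritubular myoid sum was 44.9 to 133 in WT PreL and 138 to 273 in SKO PreL, and overlapped in LZ. The endothelial sum overlapped in SPG, but did not overlap between the genotypes in PreL or LZ. The 6 detected early meiotic markers summed to 70708 to 104761 in WT LZ and 89229 to 124897 in SKO LZ, against 65144 to 76682 in WT PreL, 95832 to 152307 in SKO PreL, 42201 to 44939 in WT SPG and 64278 to 67151 in SKO SPG. These markers were thus present in every group and do not set LZ apart from PreL. In PreL the spermatid sum was 12531 to 20380 in WT and 58.9 to 92.4 in SKO. The spermatid and Leydig cell sums thus did not overlap between the genotypes in any stage. The part of these cells in the differences given below was not tested. The paper checked its PreL and LZ sorts by immunofluorescence and counted mostly cells of the named stage. It found few or no pachytene cells and no diplotene cells in them, and does not give the genotype counted. Whether the marker RNA came from later cells or from the sorted stage was not tested. In LZ and PreL the genotype and the level of later-cell marker RNA cannot be told apart. In SPG the same holds for the sums that did not overlap.

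**Figure D1:**
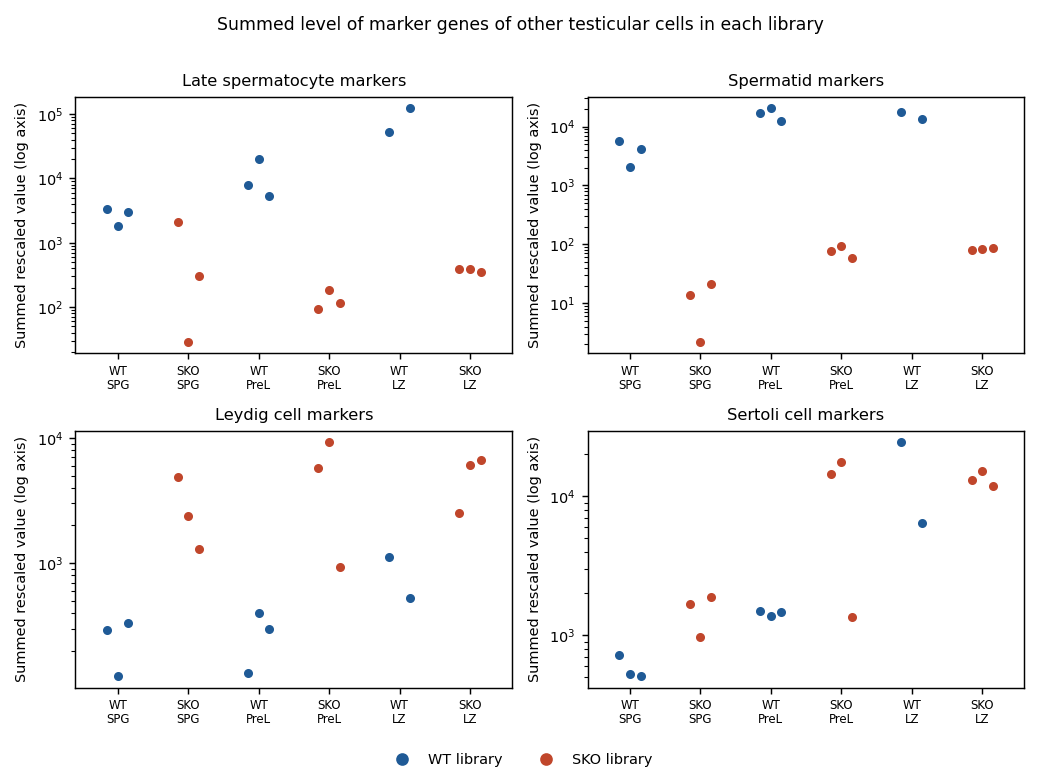
Summed rescaled value (log axis) of the late spermatocyte, spermatid, Leydig and Sertoli cell markers in each of 17 libraries, with WT in blue and SKO in red. The late spermatocyte and spermatid sums of all WT PreL and LZ libraries lie above those of all SKO PreL and LZ libraries.

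In LZ, 4 of the 9 members differed between the genotypes, in both directions. *Suv39h2* and *Ehmt1* were higher in SKO, and *Trim28* and *Ehmt2* were lower. Of all 13530 genes tested, 50.3% passed the same test in LZ (20.6% higher and 29.7% lower), so 4 of 9 was near the background. The median log2 fold change was -0.14 over the members and -0.06 over all genes tested. In SPG, 0 of 9 members passed with limma, against 15% of all genes, and 0 of 9 had an unadjusted p under 0.05; edgeR and DESeq2 on the recovered reads also called 0. In PreL, 1 of 9 passed and was higher, against 19.9% of all genes (9.16% higher).

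**Figure D2:**
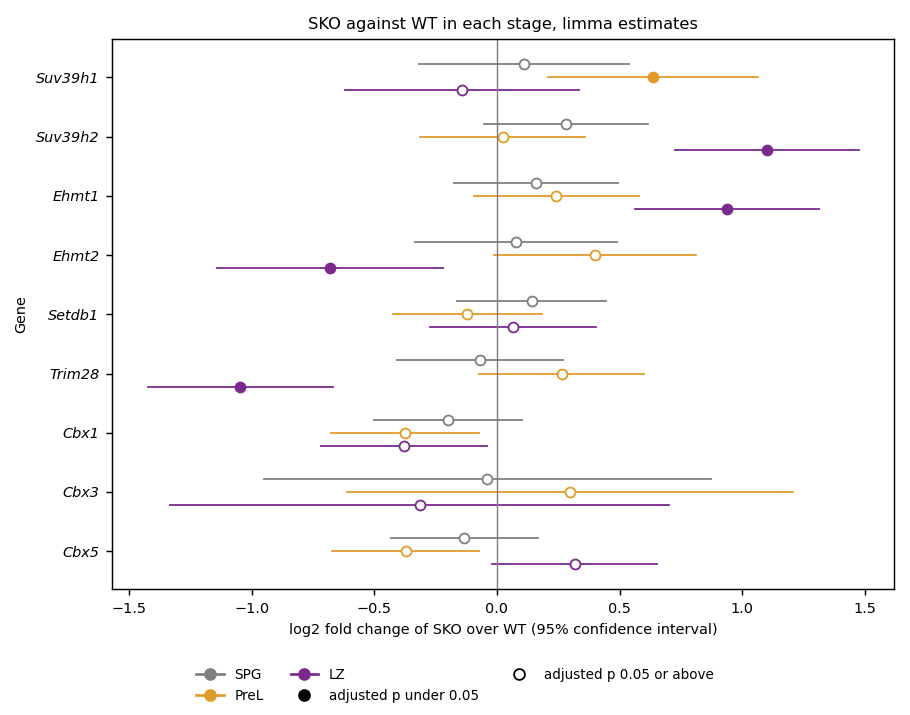
The log2 fold change of SKO over WT for the 9 members in SPG, PreL and LZ, with 95% confidence intervals from limma and filled points for an adjusted p under 0.05. *Suv39h2* and *Ehmt1* lie above 0 and *Trim28* and *Ehmt2* below 0 in LZ, a direction that held under the 3 scalings tried, and *Suv39h1* is the single filled point of PreL.

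Of the SUV39 pair, *Suv39h2* was higher in SKO LZ. This paralogue, known for its expression in the adult testis, had rescaled values of 1059 and 1366 in the WT LZ libraries and 2729, 2538 and 2516 in the SKO LZ libraries. Every SKO library was thus above both WT libraries, with a log2 fold change of 1.10 (SE 0.18, limma adjusted p = 4.05e-05), or 2.15-fold (95% confidence interval 1.65 to 2.78). A change in the share of a cell type and a change in RNA per cell cannot be told apart in such bulk samples. In the earlier stages the genotypes overlapped. *Suv39h2* stood at 2181, 2828 and 2152 in WT SPG, at 2517, 3417 and 2785 in SKO SPG, at 2226, 2088 and 2787 in WT PreL and at 2568, 2059 and 2569 in SKO PreL. The WT LZ pair was therefore the low group, and the SKO LZ libraries lay within the range of the earlier stages. On rescaled values *Suv39h2* fell from PreL to LZ in WT by 0.96 on the log2 scale (SE 0.18, adjusted p = 0.000352), whereas on the ERCC-calibrated values without rescaling it was higher in WT LZ by 0.72 (adjusted p = 0.00198), where the median of all genes was 1.80. In SKO the same step was 0.12 (SE 0.16, adjusted p = 0.648) on rescaled values and 0.94 (adjusted p = 0.000177) on the ERCC-calibrated values, where the median of all genes was 0.76.

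*Suv39h1*, the X-linked paralogue, was the only member that passed in PreL with limma on rescaled values. On the ERCC-calibrated values 7 members passed there, DESeq2 also called *Cbx1*, and the replicate block called *Cbx1* in place of *Suv39h1*. Its values were 1778, 1372 and 1692 in WT PreL and 2100, 2030 and 3666 in SKO PreL, so the groups did not overlap, and replicate 3 of SKO stood far above the other two. The log2 fold change was 0.64 (SE 0.20, adjusted p = 0.0333). Without SKO PreL replicate 3 it was 0.36 (adjusted p = 0.193), and it also lost the call without WT PreL replicate 2 (0.52, adjusted p = 0.14) or replicate 4 (0.67, adjusted p = 0.0582). Replicate 3 was the SKO PreL library with the lowest Leydig and Sertoli cell marker sums. In LZ the values were 1412 and 1423 in WT and 1160, 1313 and 1388 in SKO, and the log2 fold change was -0.14 (95% confidence interval -0.62 to 0.34, adjusted p = 0.635). From PreL to LZ *Suv39h1* fell in SKO by 0.96 (SE 0.20, adjusted p = 0.00146) on rescaled values, against -0.14 (adjusted p = 0.582) on the ERCC-calibrated values, and differed by -0.18 in WT (SE 0.23, adjusted p = 0.556). The interaction of these steps missed the threshold with limma on rescaled values (-0.78, SE 0.31, adjusted p = 0.0513), and passed on the ERCC-calibrated values (-1.65, adjusted p = 0.000124) and with DESeq2 (-0.82, adjusted p = 0.0485). In SPG the values were 2120, 1589 and 2308 in WT and 2601, 1817 and 2067 in SKO, which overlapped.

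**Figure D3:**
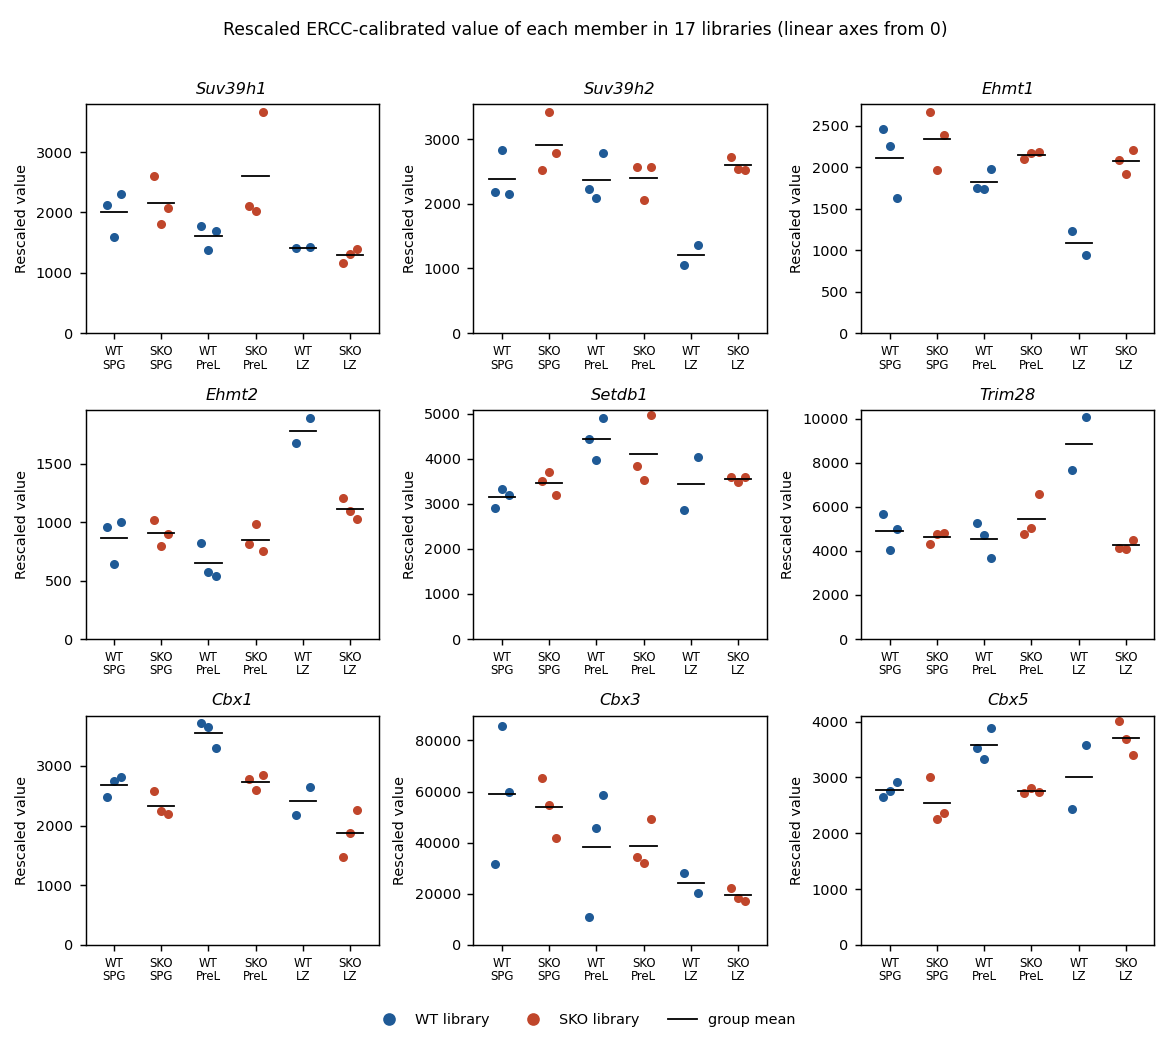
Rescaled value of each of the 9 members in 17 libraries, by genotype and stage, on linear axes that start at 0, with a black line at the group mean. The WT LZ libraries are the lowest for *Suv39h2* and *Ehmt1* and the highest for *Ehmt2* and *Trim28*, and 1 library of SKO PreL stands apart for *Suv39h1*.

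The G9a/GLP pair showed opposite differences in the same libraries. *Ehmt1* stood at 1228 and 938 in WT LZ and at 2091, 1912 and 2202 in SKO LZ, a log2 fold change of 0.94 (SE 0.18, limma adjusted p = 0.000219), or 1.92-fold. *Ehmt2* stood at 1681 and 1891 in WT LZ and at 1209, 1098 and 1028 in SKO LZ, a log2 fold change of -0.68 (SE 0.22, adjusted p = 0.0145), or 1.60-fold lower. Neither gene overlapped between the genotypes. *Ehmt2* has a GC content above 95.5% of matched genes, and with the trends of GC content and transcript length removed its difference was -0.30 (adjusted p = 0.206), while that of *Ehmt1* was 1.20 (adjusted p = 1.37e-05). The GC content and length used were medians over all annotated transcripts of a gene. That length was 1078 bp for *Ehmt2* and 1546 bp for *Ehmt1*, whose merged exons cover 4115 and 5974 bp. The corrected values depend on this choice, which was not varied. Leaving out WT LZ replicate 3 (adjusted p = 0.0942) or SKO LZ replicate 3 (adjusted p = 0.0502) also ended the *Ehmt2* call, as did edgeR on the recovered reads (-0.55, adjusted p = 0.0502).

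Before LZ, *Ehmt2* was low in both genotypes. Its values were 961, 647 and 1001 in WT SPG, 1017, 798 and 901 in SKO SPG, 826, 577 and 540 in WT PreL and 810, 982 and 754 in SKO PreL. From PreL to LZ it rose in WT by 1.47 on the log2 scale (SE 0.22, adjusted p = 5.06e-05), the largest change of a member between these groups, and differed by 0.39 in SKO (SE 0.20, adjusted p = 0.159), which was 1.20 on the ERCC-calibrated values (adjusted p = 0.000229). *Ehmt1* moved the other way in WT and fell by 0.75 (SE 0.18, adjusted p = 0.00235) on rescaled values, but was higher by 0.93 on the ERCC-calibrated values without rescaling, and it differed by -0.06 in SKO on rescaled values (SE 0.16, adjusted p = 0.851) and by 0.76 on the ERCC-calibrated values (adjusted p = 0.00525). Its fall in WT lost the call without WT LZ replicate 3 (-0.55, adjusted p = 0.0547). *Ehmt1* values before LZ were 2458, 2253 and 1626 in WT SPG, 2670, 1965 and 2392 in SKO SPG, 1750, 1734 and 1978 in WT PreL and 2095, 2172 and 2188 in SKO PreL. The PreL groups of *Ehmt1* did not overlap, but the difference of 0.24 did not pass (SE 0.16, adjusted p = 0.311).

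A ratio of the reads of 2 genes within a library does not depend on scaling, but is not corrected for the trends of GC content and transcript length. There were 1.37 and 2.02 reads of *Ehmt2* for each read of *Ehmt1* in WT LZ. In SKO LZ there were 0.578, 0.574 and 0.467, and in the 12 libraries of SPG and PreL between 0.273 and 0.616. The WT LZ libraries were thus the only ones of the 17 with more *Ehmt2* than *Ehmt1* reads. *Suv39h2* reads per *Suv39h1* read were 0.750 and 0.960 in WT LZ and 2.35, 1.93 and 1.81 in SKO LZ, against 0.701 to 1.88 in SPG and PreL. No test was run on these ratios, which were chosen after the values were seen.

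**Figure D4:**
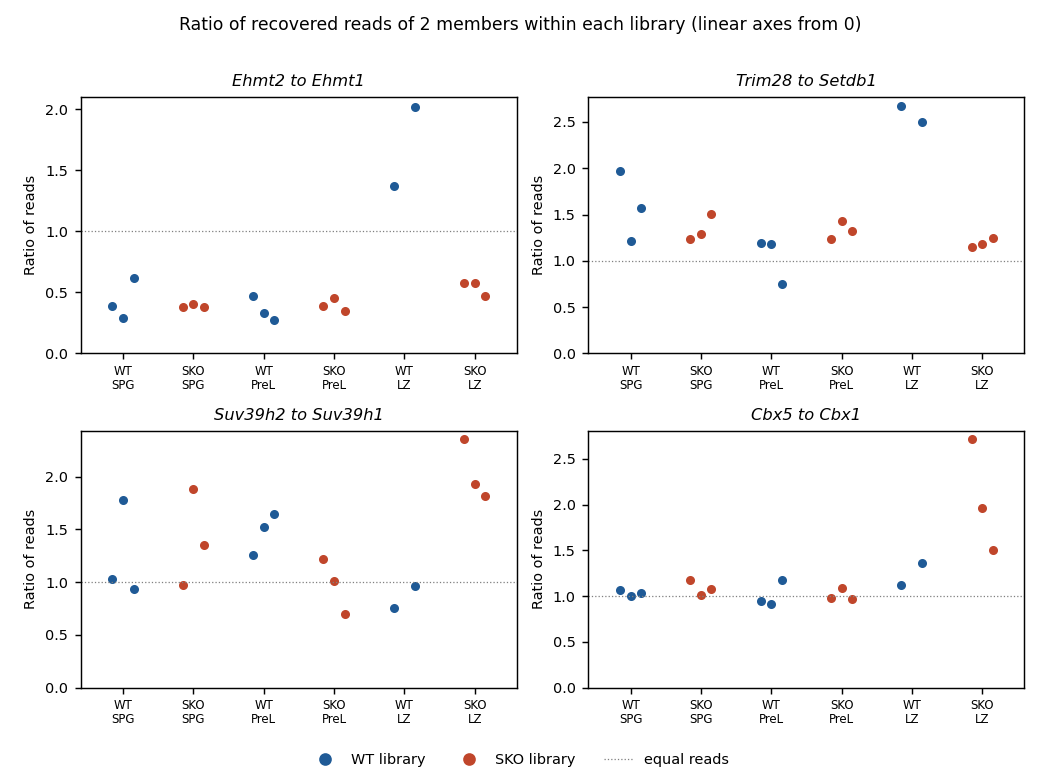
Ratio of recovered reads of pairs of members within each of the 17 libraries, on linear axes from 0, with WT in blue, SKO in red and a dotted line at equal reads. The ratios of *Ehmt2* to *Ehmt1* (1.37 and 2.02) and of *Trim28* to *Setdb1* (2.68 and 2.50) are highest in WT LZ, and those of *Suv39h2* to *Suv39h1* and of *Cbx5* to *Cbx1* are high in SKO LZ.

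*Trim28* had the largest fall among the members in SKO LZ, and its enzyme partner *Setdb1* did not pass there. *Trim28* stood at 7683 and 10065 in WT LZ and at 4139, 4110 and 4509 in SKO LZ. The log2 fold change was -1.05 (SE 0.18, limma adjusted p = 7.4e-05), or 2.07-fold lower, and the groups did not overlap. With the GC and length trends removed it was -0.62 (adjusted p = 0.0043). The median transcript length used there was 814 bp, while the merged exons of *Trim28* cover 3245 bp. In SPG and PreL the genotypes overlapped, with values of 5694, 4054 and 4988 in WT SPG, 4322, 4765 and 4831 in SKO SPG, 5286, 4709 and 3663 in WT PreL and 4755, 5039 and 6591 in SKO PreL. WT LZ was therefore the high group. *Trim28* rose from PreL to LZ in WT by 0.96 (SE 0.18, adjusted p = 0.000355) and differed by -0.35 in SKO on rescaled values (SE 0.16, adjusted p = 0.126), against 0.47 on the ERCC-calibrated values (adjusted p = 0.0301).

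*Setdb1* stood at 2871 and 4029 in WT LZ and at 3594, 3487 and 3603 in SKO LZ, and the SKO libraries lay between the WT libraries. The log2 fold change was 0.07 (95% confidence interval -0.27 to 0.41, adjusted p = 0.762), and -0.26 (adjusted p = 0.223) with the GC and length trends removed. With limma on rescaled values it was the only member that passed between WT SPG (2898, 3337 and 3185) and WT PreL (4434, 3980 and 4911), where it was higher in PreL by 0.50 (SE 0.15, adjusted p = 0.0357). In that comparison 10.6% of all genes passed (6.3% higher). Leaving out any WT SPG library, or WT PreL replicate 1 or 4, ended this call, with adjusted p between 0.0618 and 0.113, as did edgeR (0.45, adjusted p = 0.0528) and removal of the GC and length trends (0.44, adjusted p = 0.072), and DESeq2 also called *Cbx1* (0.41, adjusted p = 0.0429). In SKO the values were 3505, 3698 and 3200 in SPG and 3847, 3526 and 4968 in PreL, which overlapped. *Trim28* reads per *Setdb1* read were 2.68 and 2.50 in WT LZ and 1.15, 1.18 and 1.25 in SKO LZ, against 0.746 to 1.96 in SPG and PreL.

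The HP1 genes did not pass between the genotypes with limma on rescaled values in any stage, but other settings called *Cbx1* or *Cbx5* in PreL or LZ, and the ERCC-calibrated values without rescaling called *Cbx3* in PreL (1.03, adjusted p = 0.049). *Cbx3* had the highest level per kilobase of exon, with group means from 9883 to 30108 rescaled values per kilobase, against 770 to 1465 for *Cbx1* and 284 to 412 for *Cbx5*, but its libraries were uneven. It stood at 31509, 85728 and 59886 in WT SPG, 10940, 45775 and 58619 in WT PreL and 28055 and 20510 in WT LZ. The SKO values were 65289, 54704 and 41783 in SPG, 34453, 32173 and 49309 in PreL and 22335, 18474 and 17336 in LZ. Its log2 fold change in LZ was -0.32 with a 95% confidence interval from -1.33 to 0.70, the widest of any member in LZ. *Cbx3* took between 0.0513% and 0.381% of all reads of a library.

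*Cbx1* and *Cbx5* had non-overlapping genotypes in PreL. *Cbx1* stood at 3719, 3657 and 3300 in WT PreL and at 2775, 2592 and 2848 in SKO PreL (log2 fold change -0.38, SE 0.14, adjusted p = 0.073). *Cbx5* stood at 3524, 3335 and 3877 in WT PreL and at 2715, 2812 and 2744 in SKO PreL (-0.37, SE 0.14, adjusted p = 0.0745). Neither passed with limma on rescaled values, and both were above 0 on the ERCC-calibrated values without rescaling (0.35 and 0.36). *Cbx1* passed with DESeq2 (-0.38, adjusted p = 0.0473), with the replicate block (-0.46, adjusted p = 0.0428) and without SKO LZ replicate 1 (-0.37, adjusted p = 0.0475). *Cbx5* passed with the GC and length trends removed (-0.43, adjusted p = 0.0238) and without WT LZ replicate 2 or 3 (adjusted p = 0.0332 and 0.0333). In PreL 4 of 9 members did not overlap between the genotypes, against 37.3% of all genes. In LZ it was 5 of 9, against 69.3%.

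In LZ neither gene passed between the genotypes with limma on rescaled values. *Cbx1* stood at 2179 and 2645 in WT LZ and at 1476, 1876 and 2261 in SKO LZ (-0.38, SE 0.16, adjusted p = 0.0573). *Cbx5* stood at 2443 and 3589 in WT LZ and at 4008, 3682 and 3406 in SKO LZ (0.32, SE 0.16, adjusted p = 0.109). Both overlapped between the genotypes. *Cbx1* passed on the ERCC-calibrated values (-0.52, adjusted p = 0.0443), without WT LZ replicate 2 (-0.52, adjusted p = 0.0341) and without SKO LZ replicate 3 (-0.52, adjusted p = 0.0137). *Cbx5* passed with TMM scaling (0.40, adjusted p = 0.0322), with edgeR (0.44, adjusted p = 0.0293) and without WT LZ replicate 3 (0.58, adjusted p = 0.0118), and was at 0.18 on the ERCC-calibrated values (adjusted p = 0.51). From PreL to LZ *Cbx1* fell in WT by 0.56 (SE 0.16, adjusted p = 0.00829) and in SKO by 0.57 (SE 0.14, adjusted p = 0.00578) on rescaled values, although on the ERCC-calibrated values it was higher in WT LZ by 1.12 and differed by 0.25 in SKO (adjusted p = 0.28). Its fall in WT lost the call without WT LZ replicate 2 (-0.43, adjusted p = 0.0979). *Cbx5* rose in SKO by 0.42 (SE 0.14, adjusted p = 0.0361), though not past the threshold with TMM scaling (0.35, adjusted p = 0.0635), and differed by -0.27 in WT (SE 0.16, adjusted p = 0.182) on rescaled values, against -0.38 with TMM scaling (adjusted p = 0.0464) and 1.42 on the ERCC-calibrated values. *Cbx5* reads per *Cbx1* read were 2.72, 1.96 and 1.51 in SKO LZ, 1.12 and 1.36 in WT LZ, and 0.912 to 1.17 in the 12 libraries of SPG and PreL. In SPG *Cbx1* stood at 2479, 2751 and 2816 in WT and 2577, 2237 and 2193 in SKO, and *Cbx5* at 2656, 2751 and 2924 in WT and 3016, 2263 and 2368 in SKO.

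The step from PreL to LZ was next compared between the genotypes. In WT, 5 of 9 members passed on rescaled values (*Cbx1*, *Ehmt1* and *Suv39h2* lower, *Ehmt2* and *Trim28* higher), against 44.2% of all genes (17% lower and 27.2% higher), and the median log2 fold change was -0.36 over the members and 0.22 over all genes. The 3 lower calls turned into higher values on the ERCC-calibrated values without rescaling, whose median over all genes was 1.80. In SKO, 3 of 9 passed (*Suv39h1* and *Cbx1* lower, the latter higher on the ERCC-calibrated values, and *Cbx5* higher), against 26.4% of all genes (13.5% lower and 12.9% higher), a comparison added after the data were seen. The interaction term, which tests whether the genotype effect differed between LZ and PreL, passed for 5 of 9 members, against 38.2% of all genes (23.1% negative and 15.1% positive). It was negative for *Trim28* (-1.31, SE 0.24, adjusted p = 0.00035) and *Ehmt2* (-1.08, SE 0.30, adjusted p = 0.00743). It was positive for *Suv39h2* (1.08, SE 0.24, adjusted p = 0.00173), *Ehmt1* (0.70, SE 0.24, adjusted p = 0.0284) and *Cbx5* (0.69, SE 0.22, adjusted p = 0.0164), of which *Ehmt1* (-0.17) and *Cbx5* (-0.18) turned negative on the ERCC-calibrated values and *Suv39h2* no longer passed (0.21, adjusted p = 0.515). *Ehmt1* also lost the call with the replicate block (0.55, adjusted p = 0.0878) and without WT LZ replicate 3 (0.49, adjusted p = 0.172), WT PreL replicate 4, SKO PreL replicate 1 or SKO LZ replicate 1 or 3 (adjusted p between 0.0511 and 0.0638). *Cbx5* lost it without WT LZ replicate 2 (0.41, adjusted p = 0.133). Between PreL and SPG the interaction passed for 0 of 9 members with limma, against 0.362% of all genes, with 0 of 9 at an unadjusted p under 0.05 and 0 calls by edgeR and DESeq2. From SPG to PreL in SKO, 0 of 9 members passed with limma, against 8.34% of all genes, and 0 of 9 had an unadjusted p under 0.05. On the ERCC-calibrated values, whose median over all genes rose by 0.98 in that step, the members were at 0.58 (*Cbx3*) to 1.29 (*Setdb1*).

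**Figure D5:**
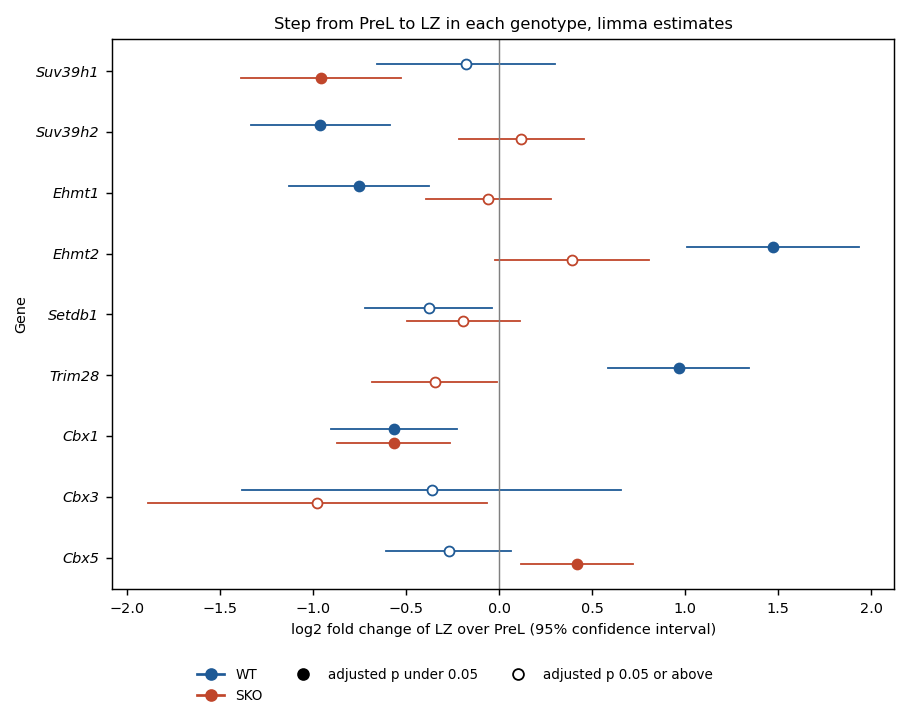
The log2 fold change of LZ over PreL for the 9 members in WT and SKO on rescaled values, with 95% confidence intervals from limma and filled points for an adjusted p under 0.05. In WT *Ehmt2* and *Trim28* lie above 0 and *Suv39h2*, *Ehmt1* and *Cbx1* below it, the latter 3 being above 0 on the ERCC-calibrated values without rescaling, and in SKO *Suv39h1* and *Cbx1* lie below 0 and *Cbx5* above it, *Cbx1* being above 0 on the ERCC-calibrated values.

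A wider list of 40 genes of the same pathway was followed, of which 38 were in the table and 37 were tested. In LZ, 12 were lower and 13 were higher in SKO, against 29.7% lower and 20.6% higher over all genes tested, and the median log2 fold change was 0.28 against -0.06 over all genes. In PreL 3 were lower and 4 higher, where 19.9% of all genes passed (9.16% higher). In SPG, where 15% of all genes passed, 1 was lower, *Uhrf1*, which binds H3K9 methylation and hemimethylated DNA (-1.20, SE 0.14, adjusted p = 2.68e-05). Of 9 tested methyltransferases and cofactors, 2 were lower and 4 higher in SKO LZ, where the shares of all genes were 29.7% and 20.6%. The H4K20 methyltransferase gene *Suv420h1* stood at 3439 and 4708 in WT LZ and at 47534, 30384 and 32732 in SKO LZ (3.16, SE 0.24, adjusted p = 3.45e-09), and the latter were also above all libraries of SPG and PreL (6596 to 15763). *Prdm16* was higher (0.97, SE 0.28, adjusted p = 0.00638) and the SETDB1 cofactor gene *Atf7ip2* was lower (-0.75, SE 0.26, adjusted p = 0.0213). In PreL the only call of this list was *Atf7ip*, which stabilises SETDB1 and was higher in SKO (1.16, SE 0.20, adjusted p = 0.000442).

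Of 11 H3K9 demethylases, 4 were lower and 4 were higher in SKO LZ, against 29.7% and 20.6% of all genes. *Kdm4d* stood at 796 and 2526 in WT LZ and at 27.2 to 71.0 in SKO LZ (-4.66, SE 0.57, adjusted p = 1.49e-06). *Phf2* stood at 399 and 1220 in WT LZ and at 85.0 to 109 in SKO LZ (-2.76, SE 0.63, adjusted p = 0.00109). In both genes the WT library with the higher value was replicate 3, which had the higher late spermatocyte marker sum and the lower spermatid marker sum of the pair. *Kdm4a* had 19 and 9 reads in WT LZ and 25, 28 and 24 reads in SKO LZ and was higher (1.95, SE 0.67, adjusted p = 0.0214). In PreL *Kdm4d* was also lower in SKO (-1.52, SE 0.51, limma adjusted p = 0.0413), and *Kdm3b* was higher there (0.70, SE 0.23, adjusted p = 0.0361). Of 3 tested HUSH and MORC genes, *Mphosph8*, a reader of H3K9 methylation, was lower in SKO LZ (-0.70, SE 0.17, adjusted p = 0.00196), and none was higher.

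Of 14 tested partners of HP1 and TRIM28, 5 were lower and 5 higher in SKO LZ, again against 29.7% and 20.6% of all genes. *Chaf1a* and *Chaf1b*, which encode subunits of the chromatin assembly factor CAF-1, were lower. *Chaf1a* stood at 1222 and 1854 in WT LZ and at 349, 446 and 451 in SKO LZ (-1.84, SE 0.25, adjusted p = 5.49e-06), and it was also lower in PreL (-1.28, SE 0.22, adjusted p = 0.000627), where the ERCC-calibrated values gave -0.55 (adjusted p = 0.0922). *Chaf1b* differed by -1.81 (SE 0.48, adjusted p = 0.00354). *Zfp57*, a KRAB zinc-finger gene that brings TRIM28 to imprinted regions, had 32 and 62 reads in WT LZ and 1, 0 and 0 reads in SKO LZ. In PreL *Smarcad1*, a remodeller bound by TRIM28, was higher (0.88, SE 0.19, adjusted p = 0.00257), and *Daxx*, a histone H3.3 chaperone, was lower on rescaled values (-0.60, SE 0.17, adjusted p = 0.0173) and at 0.12 on the ERCC-calibrated values.

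The 2 members with the widest range of group means were *Cbx3* (1.50 on the log2 scale) and *Ehmt2* (1.47). Among the 8666 genes that averaged 100 or more reads, those whose log2 values over the 17 libraries were most like *Ehmt2* were *Vps72* (Pearson r = 0.909), *Snrpc* (0.904), *Gtf2i* (0.900), *Cstf1* (0.891) and *Tomm34* (0.874). Those most like *Cbx3* were *Lyrm4* (0.960), *Notch2* (0.952), *Alkbh5* (0.947), *Yme1l1* (0.947) and *Slc39a1* (0.937). The points share libraries, groups and scaling, so these values are descriptions.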

How the data were processed

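The authors mapped trimmed reads to mm10 and used HTSeq 0.11.2 to count those that mapped uniquely to each gene. The submitters' processing notes also name TopHat2 2.1.1, Cufflinks 2.2.1 and DESeq2. The deposited signal values are counts times 1 calibration factor per library, which the authors took from the ERCC spike-in, corrected for cell input. In each library 100% of the values were whole multiples (within 0.01) of what 1 read is worth, and dividing by it gave the recovered reads. The table holds 0 ERCC rows.

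Size factors were medians of ratios over 17 libraries, and the deposited values were divided by them, which cancels the calibration factors. The 13530 genes with 10 or more recovered reads on average entered 1 limma fit (version 3.58.1, R 4.3.3) of 6 groups on log2(rescaled value + 10), with a trend of variance on mean and Benjamini-Hochberg adjustment over all genes tested. Fold changes on this scale understate those of low genes. A gene passed at an adjusted p under 0.05. limma was run on the rescaled values, which are not whole numbers, and edgeR and DESeq2 were run on the recovered whole reads.

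Alternatives were TMM scaling, no rescaling of the ERCC-calibrated values, pseudocounts of 1 and 50, filters of 0 and 50 reads, edgeR 4.0.16 and DESeq2 1.42.0 on recovered reads, fits of only the groups compared, a replicate block, the study's added threshold of an absolute log2 fold change above 1, and each library left out. Correction of each library for GC content and length of transcripts (lowess, span 0.3) and SKO PreL with replicate 3 alone were chosen after seeing the data. The correction used the median GC content and length over all annotated transcripts of a gene, short ones included. The scaling alternatives were extended to the pathway genes and to the SKO step from PreL to LZ after seeing the data. The tests were also run on simulated data in which a small set of genes was changed in a single group. That setting differs from LZ, where 50.3% of all genes passed, so it cannot check the scaling there.

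The members and all gene lists were chosen with earlier results of these data known. Named genes were the members, *Nat10*, the 5 genes most correlated with each of 2 members, and genes of the pathway lists. Of each pathway list, up to 3 genes with the largest change among those passing were named in each comparison of SKO with WT. Those of the stage steps and interactions were not named. *Fam208a*, *Lrif1* and the marker *Meioc* are not listed in the table, and *Mecom* did not pass the filter. Marker lists of undifferentiated and differentiating spermatogonia were also summed (827 to 2727 and 10446 to 24141 per library). The differentiating sum was 13874 to 14942 in WT SPG and 17374 to 19412 in SKO SPG. It was 20848 to 24141 in WT PreL and 12299 to 15898 in SKO PreL, and overlapped in LZ. The undifferentiated sum overlapped between the genotypes in each stage. It was highest in LZ, at 1716 to 2727 in WT and 1831 to 2445 in SKO. GENCODE for GRCm38 gave the GC content, lengths, exon overlaps and positions. Of the symbols, 20857 matched it as listed, 1941 matched by an older symbol and 484 did not match. Replicate libraries of a group were no copies of each other (their chi-square divided by its degrees of freedom was 6.3 to 67.1). Protein sequences, isoforms and chromatin data were not analysed here. No molecular identifiers were used, so PCR copies count as reads and read numbers cover counting error only.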

Additional observations from a re-analysis of the deposited data

Results flagged for a closer look

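The genotype effect differed between LZ and PreL for 5 members, by the interaction term of the limma fit over 17 libraries, where 38.2% of all genes passed. The difference of the log2 fold changes was 1.08 for *Suv39h2* (adjusted p = 0.00173), 0.70 for *Ehmt1* (adjusted p = 0.0284) and 0.69 for *Cbx5* (adjusted p = 0.0164), and it was -1.08 for *Ehmt2* (adjusted p = 0.00743) and -1.31 for *Trim28* (adjusted p = 0.00035). The effects behind them were 0.02 in PreL and 1.10 in LZ for *Suv39h2*, 0.24 and 0.94 for *Ehmt1*, -0.37 and 0.32 for *Cbx5*, 0.40 and -0.68 for *Ehmt2*, and 0.26 and -1.05 for *Trim28*. On the ERCC-calibrated values without rescaling the differences of *Ehmt1* (-0.17) and *Cbx5* (-0.18) were negative and that of *Suv39h2* was 0.21 (adjusted p = 0.515). No group held 4 or more libraries, so single libraries were not tested for standing apart within a group.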

How the results depend on the processing

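Over the 7 comparisons and 30 alternatives there were 1890 values of a member. Of these, 1789 kept their direction and side of the threshold or were past it in neither setting. Of the rest, 42 lost the call, 44 gained it and 15 were reversed. A value past the threshold in neither setting was counted as kept even if its sign changed. As 17 alternatives left out 1 library, often from a group outside the comparison, the count is no measure of robustness. Without rescaling of the ERCC-calibrated values, 7 members passed between the genotypes in PreL, 9 between WT LZ and WT PreL and 8 in the interaction of PreL and SPG, all higher. Reversed in that setting were *Setdb1* in PreL (0.61), *Suv39h1* (1.51), *Suv39h2* (0.72), *Ehmt1* (0.93), *Setdb1* (1.31), *Cbx1* (1.12), *Cbx3* (1.33) and *Cbx5* (1.42) between WT LZ and WT PreL, *Suv39h2* (0.76), *Setdb1* (0.75), *Cbx1* (0.84) and *Cbx5* (0.78) in the interaction of PreL and SPG, and *Ehmt1* (-0.17), *Setdb1* (-0.68) and *Cbx5* (-0.18) in that of LZ and PreL. The median of all genes moved from 0.02 to 0.72 in PreL, from 0.22 to 1.80 between WT LZ and WT PreL, and from -0.31 to -1.12 in the interaction of LZ and PreL, and the lower share of passing genes from 54.1% to 8.79%, from 38.5% to 0.273% and from 60.5% to 89.8%. In LZ the shift was from -0.06 to -0.20, with 59.1% and 66.8% lower, and in SPG from 0.001 to -0.26, with 48.3% and 77.4% lower.

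The PreL count of 1 became 0 with no filter, with only the groups compared and with the fold threshold, and 2 with DESeq2 and with GC and length trends removed. The WT PreL against SPG count of 1 became 0 with no filter, with edgeR, with only the groups compared, with the fold threshold and with the trends removed, and 2 with DESeq2. The fold threshold left 2 members in LZ, 1 between WT LZ and WT PreL and 3 in the interaction of LZ and PreL, where SKO PreL replicate 3 alone gave 3 calls, of which 2 were among the 5 (*Trim28* and *Suv39h2*) and 1 was *Suv39h1*, whose value in that library stands apart. Apart from settings whose own construction lowers a count, the cause was not tested. Leaving out 1 library gave 0 members in SPG, 0 to 2 in PreL, 4 to 5 in LZ and 0 to 1 between WT PreL and SPG. It gave 4 to 6 between WT LZ and PreL, 0 in the interaction of PreL and SPG and 4 to 6 in that of LZ and PreL. An equal count need not hold the same members. In LZ *Cbx5* took the place of *Ehmt2* without WT LZ replicate 3, and *Cbx1* took it without SKO LZ replicate 3. A lone WT LZ or SKO PreL library is assumed to vary like the other groups.

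Whether replicate numbers pair the libraries could not be settled. Deviations of 9 same-numbered pairs from their group means correlated between -0.19 and 0.13, and in 5 of 9 the own number correlated best. Deviations within a group sum to 0, so these correlations are not independent of each other. With the replicate block, 0 members passed in SPG, 1 in PreL (*Cbx1* at -0.46, adjusted p = 0.0428, in place of *Suv39h1* at 0.60, adjusted p = 0.0594), 4 in LZ, 1 between WT PreL and SPG, 6 between WT LZ and PreL, and 0 and 4 in the interactions. Of the genes named, *Zfp57* and *Kdm4a* had the fewest reads, and the 2 WT LZ libraries and the uneven *Cbx3* libraries limit precision.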
